A study of Mus musculus with 2 samples.

Results

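The genes described here encode the machinery that brings new secreted and membrane proteins into the endoplasmic reticulum (ER) and first processes them there: the signal recognition particle (SRP) and its receptor, the Sec61 channel with its partners, signal peptidase and the oligosaccharyltransferase (OST). They were named as a list of 34 gene symbols, and all 34 were among the 23183 symbols of the expression tables. RNA was sequenced from 2 libraries of mouse lung cancer cells, 1 of KPR- cells and 1 of KPRrestored cells. KPR- cells are immortalized and derive from lung tumours of KPR L/F-TAM(-) mice (whether they are a single clone is not stated). Adenoviral Cre under the CMV promoter had switched on an oncogenic *K-Ras* LoxP-Stop-LoxP allele and a Tomato reporter in them and had removed *p53* flox and *Runx3* flox, while a Frt-Stop-Frt cassette kept the other *Runx3* allele off. In KPRrestored cells 4-hydroxytamoxifen (4-OHT) activated the Flp ERT2 recombinase, which removes that cassette, so both groups carry the same *K-Ras*, *p53* and Flp ERT2 alleles and differ in *Runx3*, labelled RUNX3 -/- in KPR- and RUNX3 -/+ in KPRrestored. The sample titles give 0 h for KPR- and 16 h for KPRrestored, and the treatment field gives 1 μM 4-OHT for both.

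Restoration of *Runx3*, exposure to 4-OHT and hours in culture cannot be told apart in this design. With 1 library in each group there is no replicate check, no p-value was computed, fewer cells of a kind and less RNA per cell cannot be told apart, and every difference below is that of the library labelled KPRrestored against the library labelled KPR-. The unit is FPKM, fragments scaled to the length of the transcript and to the size of the library. The paper also names a geometric normalization of read counts, and whether it entered these values is not known. Being per length, it allows a rough comparison between genes, limited by the gene models used and by near-identical copies. Differences are given as log2(FPKM + 0.005) in KPRrestored minus KPR-. Whole fragments leave steps in low FPKM values. These steps gave library sizes, taken as depths, of about 21800000 fragments for KPR- and 22400000 for KPRrestored. At this depth each of the 34 genes had at least 397 estimated fragments in a library, and a 95% interval for counting error alone (exact Clopper-Pearson limits) is given with the differences. *Runx3* had 0.348 FPKM in KPR- and 0.349 FPKM in KPRrestored, from about 28 and 29 fragments, and the values per gene do not separate the restored allele, so they do not check the labels. The line was checked against marker genes. The 8 epithelial markers summed to 4988 and 4827 FPKM, most of it *Krt8*, *Krt18* and *Krt19*. *Nkx2-1* was near 0 and *Sftpc*, which marks alveolar cells, was listed at 0 in both. The other 6 went in both directions. *Cldn4* stood at 0.92 (107 and 202 FPKM), *Cdh1* at 0.13 and *Krt19* at 0.11, whereas *Krt18* and *Epcam* stood at -0.20 and *Krt8* at -0.069. The 4 immune markers summed to 3.08 and 6.79 FPKM, with *Lyz2* and *Cd3e* listed at 0 in both. Almost all of this sum was *Cd68*, which stood at 1.13 (3.08 and 6.78 FPKM, about 68 and 154 fragments). The 3 endothelial markers summed to 1.16 and 2.22 FPKM, most of it *Kdr*, which stood at 0.89 (1.10 and 2.05 FPKM). The 6 fibroblast markers summed to 12.7 and 5.35 FPKM, most of it *Col1a1*, which stood at -1.53. The part of these marker genes in the results was not tested.

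SRP binds a signal sequence as it leaves the ribosome and hands the ribosome to the SRP receptor on the ER membrane. The nascent chain then enters the Sec61 channel, assisted by Sec62 and Sec63, by TRAM and by the translocon-associated protein complex (TRAP). Inside, signal peptidase cuts off the signal peptide and OST attaches a preassembled glycan to asparagine residues. Epithelial and other secretory cells depend on this route for receptors, adhesion proteins and matrix, and the unfolded protein response is known to adjust many of its genes.

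The genes of glycan transfer and of the auxiliary translocon proteins were lower in KPRrestored, whereas the median of the SRP protein genes lay near 0. Over the 34 genes the median log2 difference was -0.20, against 0.0086 over the 11231 genes whose FPKM averaged 1 or more. In all, 7 of the 34 genes were lower by 0.5 or more, which is 20.6%, where 9.29% of the 11231 genes were lower by as much. None of the 34 was higher by 0.5 or more, where 12.1% of the 11231 genes were. Values below 0 were seen for 26 of the 34, or 76.5%, beside 49% of the 11231 genes, and values above 0 for 8, beside 51%. At a smaller step of 0.25, 16 of the 34 were lower, beside 23.7% of the 11231 genes. Since 33 of the 34 genes averaged 20 FPKM or more, the 4363 genes at that level were also counted: 6.39% of them were lower and 8.43% higher by 0.5 or more, 21.7% were lower by 0.25 or more, and 50.2% were below 0 and 49.8% above. The counting interval lay below 0 for 22 of the 34 genes, above 0 for 3 and held 0 for 9. Among the 11123 of the 11231 genes with a fragment estimate it lay below 0 for 31.7% and above 0 for 33%, and among the 4340 of these that averaged 20 FPKM or more, for 38.6% and 37.5%, so that at this depth most genes of such a level have an interval on one side of 0.

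**Figure D1:**
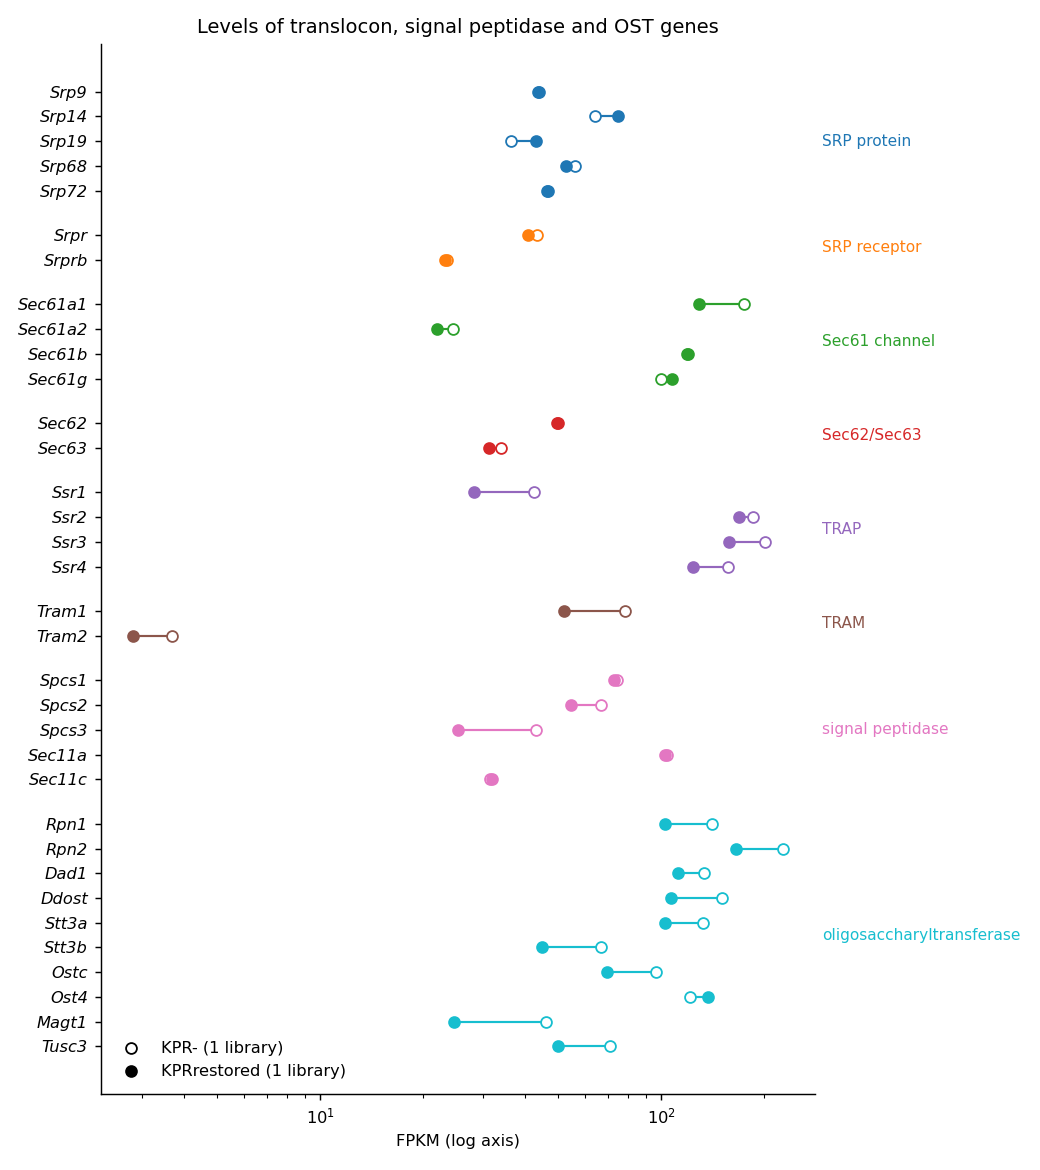
FPKM of each of the 34 genes on a log axis, grouped by complex, with an open circle for the KPR- library and a filled circle for the KPRrestored library. The filled circles lie left of the open ones for 9 of the 10 OST genes, all 4 TRAP genes and both TRAM genes, and almost on them for *Srp9*, *Srp68* and *Srp72*.

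OST showed the lowest median of the complexes with more than 2 genes, -0.47, with 9 of its 10 listed genes lower in KPRrestored. The counting intervals of all 9 lay below 0, as did 38.6% of those of all genes that averaged 20 FPKM or more. Its catalytic subunit exists in 2 forms. *Stt3a*, whose product acts on chains as they emerge from the channel, had 133 FPKM in KPR- and 103 FPKM in KPRrestored, a difference of -0.36 (counting interval -0.40 to -0.33). *Stt3b*, whose product also acts on sites that were skipped and on finished chains, had 66.7 and 44.8 FPKM, a difference of -0.57 with an interval of -0.63 to -0.52. *Stt3b* thus stood at the lower level of the pair in both libraries. The ratio of *Stt3a* to *Stt3b* was 1.99 in KPR- and 2.30 in KPRrestored, and the difference between the log2 differences of the pair was 0.21 with a counting interval of 0.14 to 0.28.

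The STT3B form carries one of 2 alternative oxidoreductase subunits, and both were lower. *Magt1* on chromosome X (105968084 to 106011906, minus strand, GRCm38) had 45.8 FPKM in KPR- and 24.8 FPKM in KPRrestored. Its difference of -0.89, with an interval of -0.96 to -0.81, was the lowest of the 34 genes and stood at percentile 2.03 of all differences. *Tusc3*, the other oxidoreductase subunit, had 70.6 and 49.7 FPKM and a difference of -0.51, with an interval of -0.61 to -0.41 that spans the threshold. The ratio of *Magt1* to *Tusc3* went from 0.649 to 0.499, and the difference between their log2 differences was -0.38 with an interval of -0.50 to -0.26. With the length trend removed, *Magt1* stood at -0.82 and *Tusc3* at -0.60. The pair then lay closer together than this interval spans. *Tusc3* was the more abundant of the pair in both libraries. *Ostc*, which ties the STT3A form to the channel, had 96.3 and 69.5 FPKM and a difference of -0.47 with an interval of -0.57 to -0.37. *Krtcap2*, which is no member but is the partner of *Ostc* in that form, had 277 and 325 FPKM, a difference of 0.23 in the other direction.

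Both forms share a set of scaffold subunits. *Rpn2*, or ribophorin II, was the most abundant of the 34 genes in KPR- at 227 FPKM and had 166 FPKM in KPRrestored, just under *Ssr2*, with a difference of -0.45. *Rpn1*, or ribophorin I, which binds substrates, had 141 and 103 FPKM and a difference of -0.46. *Ddost*, another scaffold subunit, had 151 and 107 FPKM and a difference of -0.50 with an interval of -0.56 to -0.45, so its place at the threshold lies within counting error. With a pseudocount of 1, *Ddost* and *Tusc3* no longer reached the threshold and 5 of the 34 genes were lower by 0.5 or more. *Dad1*, the small subunit named as a defender against cell death, had 133 and 112 FPKM and a difference of -0.25. Among the listed OST genes *Ost4*, the smallest subunit, with a coding length of 111 bases, was the exception: it had 121 FPKM in KPR- and 137 FPKM in KPRrestored, a difference of 0.18 with an interval of 0.052 to 0.30. *Tmem258*, an OST gene outside the list like *Krtcap2*, had 238 and 225 FPKM. Its difference of -0.081 had an interval of -0.20 to 0.036, which held 0. An exon of *Agbl5* overlaps *Ost4* on the opposite strand and a pseudogene matches the coding sequence of *Ost4* at 98.2% identity, so the value of *Ost4* is less certain than those of the larger subunits. *Agbl5* itself had 4.57 and 4.50 FPKM.

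Promoters of 4 OST genes are shown because these genes belong to 1 complex and *Ost4* differed in direction from the other 3. The sequences are from RefSeq (GRCm38.p6), run 5′ to 3′ on the strand of the gene and cover the bases before the transcript start, without bases that lie in an annotated exon. Capitals mark matches to CCAAT, the core of the NF-Y site, and to TGTGGT, a core of the RUNX site, on either strand. *Ddost* is shown at chr4:138304618-138304729 (plus strand), *Rpn1* at chr6:88084353-88084472 (plus strand), *Stt3b* at chr9:115310469-115310588 (minus strand) and *Ost4* at chr5:30907789-30907908 (minus strand).
Ddost: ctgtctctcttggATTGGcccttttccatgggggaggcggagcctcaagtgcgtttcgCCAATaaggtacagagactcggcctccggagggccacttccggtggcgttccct
Rpn1: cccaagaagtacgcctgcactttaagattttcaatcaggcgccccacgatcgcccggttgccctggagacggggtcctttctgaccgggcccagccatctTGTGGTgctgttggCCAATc
Stt3b: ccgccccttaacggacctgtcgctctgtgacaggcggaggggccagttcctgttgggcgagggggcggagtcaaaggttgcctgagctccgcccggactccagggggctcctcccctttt
Ost4: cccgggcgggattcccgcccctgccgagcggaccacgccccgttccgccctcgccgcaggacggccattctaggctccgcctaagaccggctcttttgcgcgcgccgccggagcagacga

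Promoters were given for 25 of the 34 genes, 26 promoters in all, each of 300 bases from 250 before to 50 after the start. TGTGGT was found in 11.5% of these 26, those of *Rpn1*, *Rpn2* and *Ost4* (in *Ost4* upstream of the stretch shown), beside 16.8% of all 32851 promoters and 12.2% of those of genes that averaged 1 FPKM or more. CCAAT was found in 50% of the 26 and in 37.4% of all promoters and 37.9% of those of such genes. It was present in 3 of the 4 genes lower by 0.5 or more that had a promoter and in 10 of the other 21. The ER stress element ERSE, which contains CCAAT and is bound by ATF6 with NF-Y, was found in 0 of the 26, in 0.119% of all promoters and in 0.118% of those of such genes, whereas 9 of 23 ER chaperone and stress response genes had it. ERSE-II, which also holds the CCAAT letters on the other strand, the UPRE core (TGACGTGG) and the amino acid response element (TGATGNAA) were also found in 0 of the 26, beside 0.0365%, 0.676% and 3.97% of all promoters and 0.0729%, 0.866% and 2.13% of those of genes that averaged 1 FPKM or more. A match is a description of letters, and its absence says only that these letters are not in this window.

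TRAP and TRAM, the proteins that sit beside the channel and help chains with weak signal sequences, were lower throughout. All 4 TRAP genes had counting intervals below 0, beside the same 38.6%, and their median difference was -0.35. *Ssr1*, the alpha subunit, had 42.4 FPKM in KPR- and 28.3 FPKM in KPRrestored, a difference of -0.58 with an interval of -0.63 to -0.53. *Ssr3*, the gamma subunit, had 202 and 158 FPKM and a difference of -0.36. *Ssr4*, the delta subunit, had 157 and 124 FPKM and a difference of -0.34, while *Ssr2*, the beta subunit, had 186 and 169 FPKM and the smallest difference of the complex, -0.14, with an interval of -0.20 to -0.071. The subunits of this complex thus did not shift by equal amounts, and the ratio of the most to the least abundant was 4.77 in KPR- and 5.97 in KPRrestored. *Tram1* had 78.6 FPKM in KPR- and 52.0 FPKM in KPRrestored, a difference of -0.59 with an interval of -0.66 to -0.53, the third lowest of the 34 genes. Its paralog *Tram2*, linked to collagen synthesis, was by far the least abundant gene here, with 3.67 and 2.83 FPKM and a difference of -0.38 with an interval of -0.57 to -0.18.

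**Figure D2:**
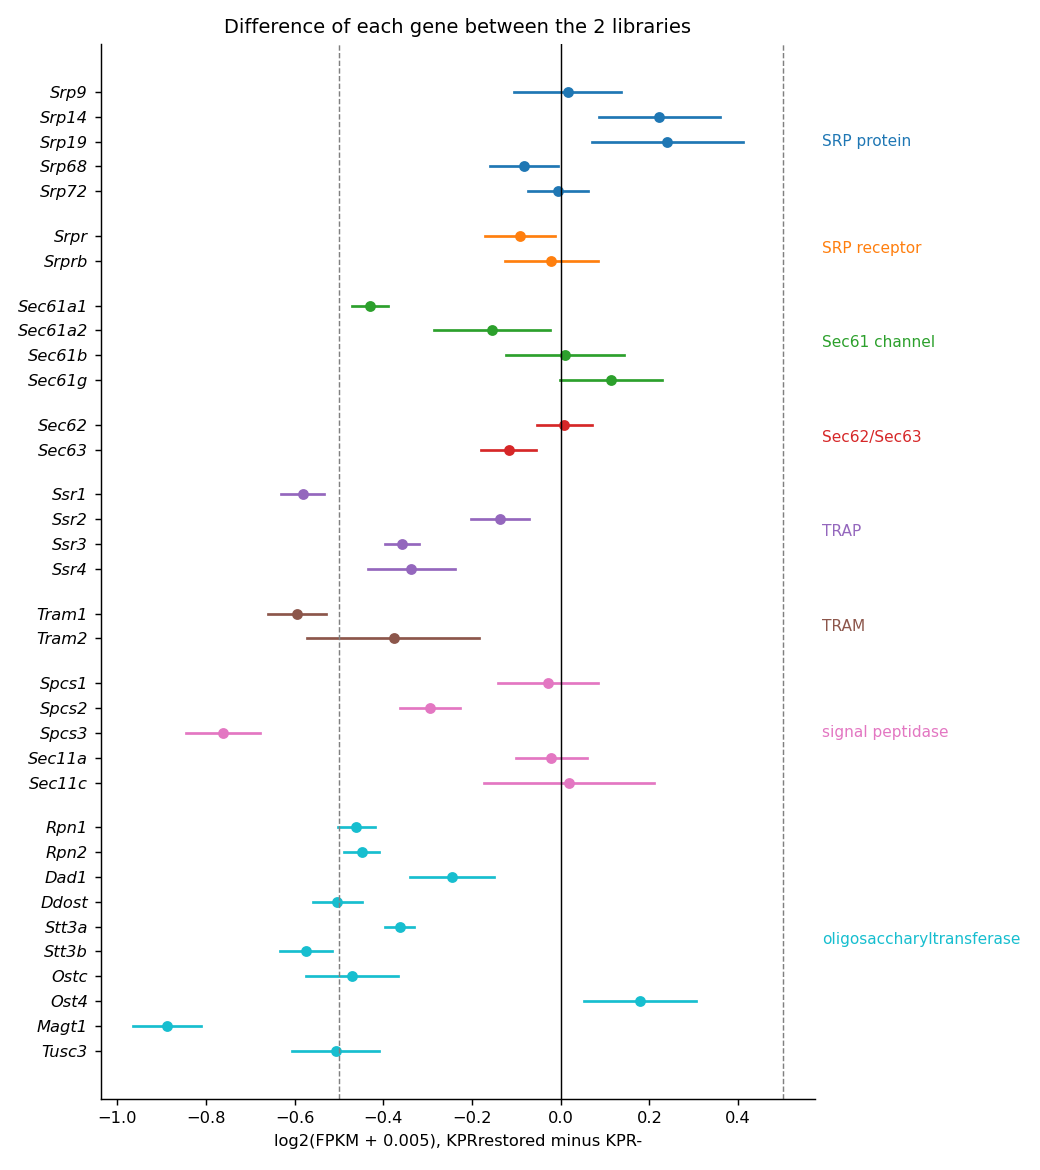
Difference between the 2 libraries for each gene, in log2(FPKM + 0.005), KPRrestored minus KPR-, with 95% counting intervals as horizontal lines and dashed lines at 0.5 either way. *Magt1*, *Spcs3* and *Tram1* lie farthest to the left at -0.89, -0.76 and -0.59, and *Srp19* and *Srp14* farthest to the right at 0.24 and 0.22.

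Within the Sec61 channel the pore subunit stood apart from the small subunits. *Sec61a1*, which forms the pore, had 174 FPKM in KPR- and 129 FPKM in KPRrestored, a difference of -0.43 with an interval of -0.47 to -0.39. The small subunit *Sec61b* had 119.1 FPKM in KPR- and 119.8 FPKM in KPRrestored, a difference of 0.0086 with an interval of -0.12 to 0.14. The small subunit *Sec61g* had 99.7 and 107.9 FPKM, a difference of 0.11 with an interval of -0.0013 to 0.23. *Sec61a2*, the second form of the pore, had 24.5 FPKM in KPR- and 21.98 FPKM in KPRrestored and a difference of -0.15 with an interval of -0.28 to -0.025. The ratio of *Sec61a1* to *Sec61a2* was 7.13 and 5.89. An exon of *Nudt5* shares up to 909 bases with *Sec61a2* on the opposite strand, at 36.1 and 39.2 FPKM, and the sources used here do not say whether fragments were counted by strand, so the level of *Sec61a2* is uncertain. Processed copies of *Sec61b* and *Sec61g* lie elsewhere in the genome, at 95.1% identity or more, and the same holds for *Srp9* and *Srpr*, while *Spcs2* has an unprocessed copy and *Srprb* shares its coding sequence with *Gm20425*. How fragments were divided among such copies is not known, and none of the copies is listed in the tables. *Sec62* and *Sec63*, which support translocation after translation and the opening of the channel, had 49.5 and 49.8 FPKM and 33.8 and 31.2 FPKM. The interval of *Sec62*, at a difference of 0.0084, held 0, and that of *Sec63*, at -0.12, ran from -0.18 to -0.055. With the trend of the differences with transcript length removed, *Sec63* stood at -0.01.

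Signal peptidase was split. *Spcs3*, an accessory subunit required for cleavage that lies on chromosome 8 (54520433 to 54529998, minus strand, GRCm38), had 43.0 FPKM in KPR- and 25.4 FPKM in KPRrestored, a difference of -0.76 with an interval of -0.85 to -0.68, the second lowest of the 34 genes at percentile 3.19 of all differences. *Spcs2*, another accessory subunit, had 66.9 and 54.5 FPKM and a difference of -0.30. The remaining subunits had similar values in both libraries. *Spcs1* had 74.4 and 72.9 FPKM, the catalytic subunit *Sec11a* had 104 and 102 FPKM, and the alternative catalytic subunit *Sec11c* had 31.4 and 31.8 FPKM. All 3 counting intervals held 0, although *Sec11a* and with it the median of signal peptidase stood at -0.11 with the length trend removed, beside -0.021 and -0.028 without. The ratio of *Sec11a* to *Sec11c* was 3.31 and 3.22, with a difference between the log2 differences of -0.040 and an interval of -0.24 to 0.16. *Spcs3* thus stood above *Sec11c* in KPR- and below it in KPRrestored.

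The signal recognition genes had medians near 0 and members in both directions. The 5 listed SRP protein genes had a median difference of 0.016 (-0.0044 when scaled to the same upper quartile). Levels of these 5 lay within 1.76-fold of each other in KPR- and 1.74-fold in KPRrestored. These were the narrowest ranges among the complexes with more than 2 listed genes. The *Srp54* genes, outside the list, stood at lower levels. *Srp54a* had 3.41 and 3.24 FPKM, *Srp54b* 0 and 0.014 FPKM and *Srp54c* 5.41 and 7.51 FPKM. The narrow ranges thus hold for the listed genes and not for the whole particle. *Srp14*, which with *Srp9* forms the part that pauses translation, had 63.9 FPKM in KPR- and 74.5 FPKM in KPRrestored, a difference of 0.22 with an interval of 0.086 to 0.36, whereas *Srp9* had 43.4 and 43.9 FPKM, a difference of 0.016 with an interval that held 0. *Srp19*, needed for assembly of the particle, had 36.3 and 42.9 FPKM and a difference of 0.24 with an interval of 0.071 to 0.41. The large subunits *Srp68* and *Srp72*, which bind each other, had 55.7 and 52.6 FPKM and 46.6 and 46.3 FPKM. Their differences were -0.082, with an interval that ended at -0.0054, and -0.0066, with an interval that held 0. The receptor genes *Srpr* and *Srprb* had 43.2 and 40.6 FPKM and 23.6 and 23.3 FPKM, differences of -0.091 and -0.021.

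The differences moved with transcript length. Over 11172 expressed genes of known length, the median difference was 0.087 in the shortest of 20 equal groups by length and -0.22 in the longest, and across the 34 genes the rank correlation of difference with transcript length was -0.54, given as a description, beside -0.21 over those 11172 genes. Of the 12 genes here with transcripts under 1500 bases, 5 were below 0 and 0 were lower by 0.5 or more, while 38% of all genes of such length were below 0 and 8.24% were lower by as much. Of the 9 genes of 1500 bases up to 3000, all 9 were below 0 and 3 were lower by 0.5 or more, beside 41.6% and 6.21% of all genes of that range. Of the 13 genes of 3000 bases or more, 12 were below 0 and 4 were lower by 0.5 or more, beside 57.4% and 11.6%. These classes use the longest matched transcript of each gene. *Dad1* counts among the 13 at 3491 bases, although its shortest matched transcript has 878. With the median of its length group subtracted from each gene, the median of the 34 genes was -0.21, and that of the OST genes was -0.53. *Ssr1*, with the longest transcript of the list at 9333 bases, moved from -0.58 to -0.36 and *Stt3a* from -0.36 to -0.26, whereas the short transcripts *Ostc* and *Ssr4* moved to -0.53 and -0.42. The part of transcript length in the remaining differences between the genes was not tested.

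**Figure D3:**
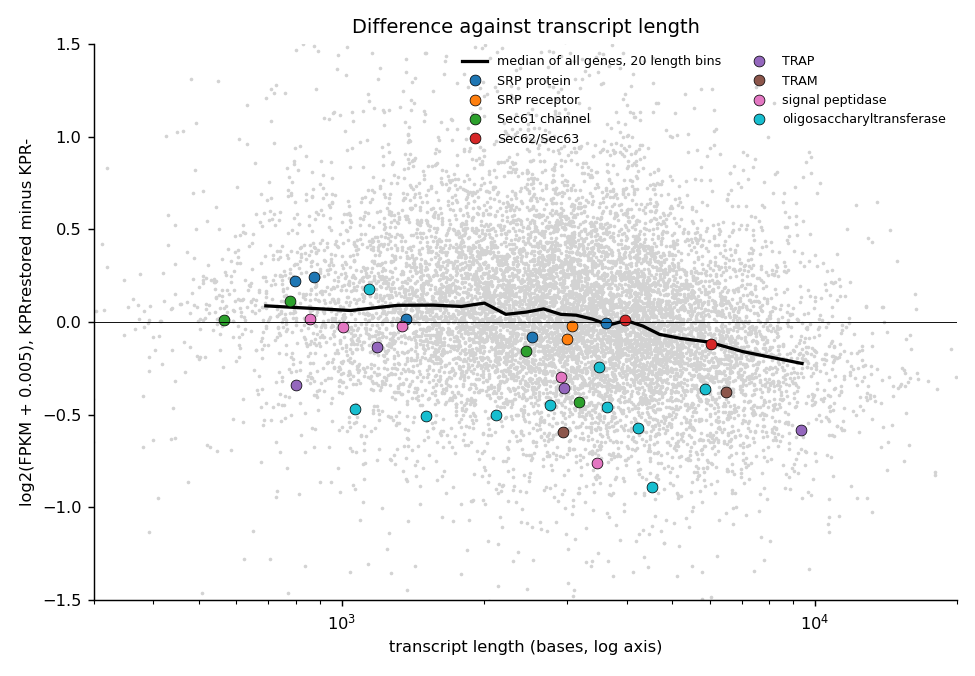
Difference of each gene in log2(FPKM + 0.005), KPRrestored minus KPR-, against transcript length in bases on a log axis, with all 11172 genes in light grey (194 lie outside the axes), the median of 20 length groups as a black line and the 34 genes coloured by complex. OST, TRAP and TRAM points lie below the line at every length except *Ost4*, and the SRP points lie near it.

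Neighbouring steps of the same route were described by lists of related genes. Dolichol-linked oligosaccharide genes, which build the glycan that OST transfers, had a median of -0.30, with 5 of 23 lower by 0.5 or more and 0 higher by as much. Among the 11231 genes, 9.29% were lower and 12.1% higher by 0.5 or more. *Alg6*, which adds the first glucose, had 7.54 and 3.87 FPKM and *Alg10b*, which adds the last, had 51.1 and 31.1 FPKM, differences of -0.96 and -0.72, while *Dpm2* and *Dhdds* had differences of 0.43 and 0.26. The GPI transamidase genes, whose product exchanges a signal at the end of a protein for a lipid anchor, had a median of -0.55 with 3 of 5 lower by 0.5 or more, beside the same 9.29%. *Pigk*, its catalytic subunit, had 15.6 and 9.47 FPKM and *Pigu* 36.9 and 24.5 FPKM. *Gpaa1* had 57.7 and 41.3 FPKM, whereas *Pigs* had 36.5 and 35.2 FPKM.

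Genes for other ways into the membrane had a median nearer to 0, with single genes far from it in both directions. The ER membrane complex (EMC) and GET genes, which insert proteins without the Sec61 channel or beside it, had a median of -0.044, with 2 of 17 lower and 2 higher by 0.5 or more. These shares are near those of the 11231 genes, 9.29% lower and 12.1% higher. *Wrb*, a receptor for tail-anchored proteins, had 14.5 and 8.01 FPKM, a difference of -0.86, while its partner *Caml* had 25.5 and 37.5 FPKM, a difference of 0.56. *Mmgt1*, an EMC subunit, had a difference of -0.80 and *Emc9*, from about 58 and 85 fragments, one of 0.52. The remaining SRP, OST and multipass translocon genes had a median of -0.10 over 10 genes, with *Tmco1* at -0.54 and *Ncln* at -0.38 the lowest and *Srp54c* at 0.47 the highest. The glycan trimming genes had a median of -0.28 over 5 genes, with *Mogs*, which removes the first glucose after transfer, lowest at 44.4 and 30.1 FPKM, a difference of -0.56, and *Uggt1* at -0.38, while *Man1b1* and *Prkcsh* had -0.049 and -0.0089.

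The ER chaperone and unfolded protein response genes had a median of -0.37 over 26 genes, with 10 lower and 3 higher by 0.5 or more, over a range of -1.10 to 0.81. Over the 11231 genes the shares were 9.29% lower and 12.1% higher. *Calr*, a lectin chaperone for glycoproteins, had 675 and 314 FPKM and *Hsp90b1*, the ER form of HSP90, had 625 and 340 FPKM. *Hspa5*, the ER chaperone BiP, had 496 and 376 FPKM, a difference of -0.40, and *Sdf2l1* had -0.97. *Xbp1*, a transcription factor of the response, had 23.0 and 37.2 FPKM and *Dnajb9*, a co-chaperone, had 9.10 and 15.97 FPKM, differences of 0.69 and 0.81. No gene of the translocon, signal peptidase or OST list stood as high as these 2, and the highest of the 34 was *Srp19* at 0.24.

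**Figure D4:**
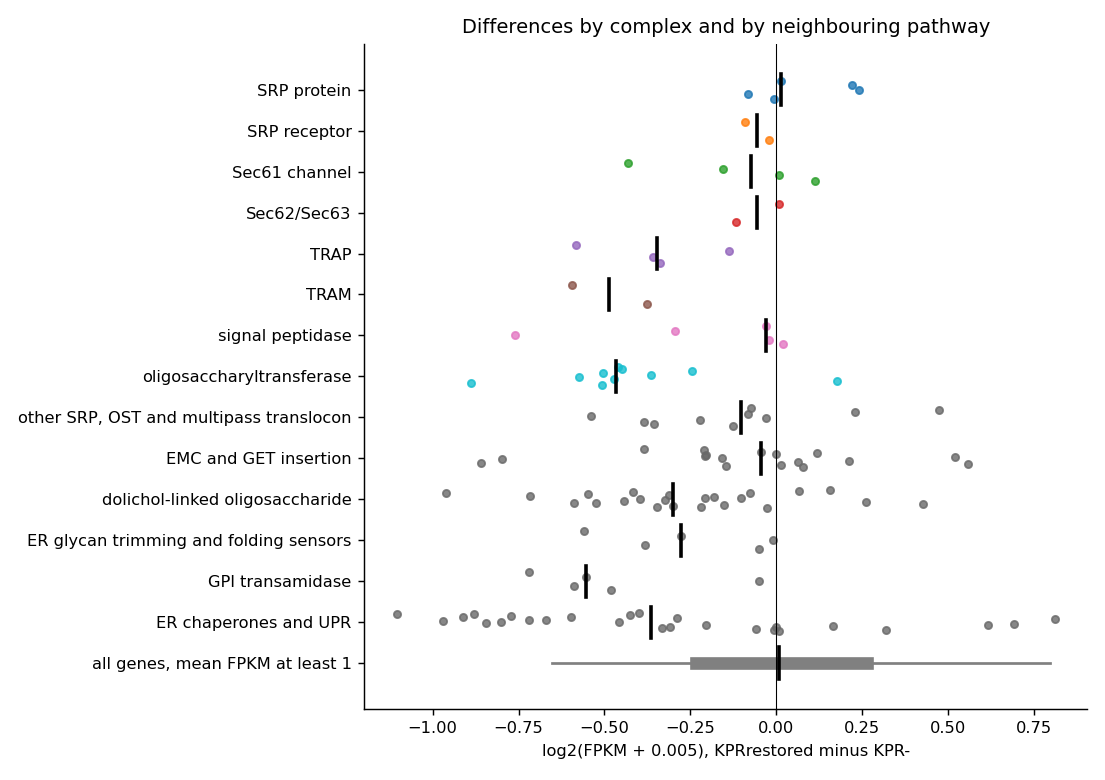
Difference of each gene that averaged 1 FPKM or more, in log2(FPKM + 0.005), KPRrestored minus KPR-, by complex (coloured) and by neighbouring list (grey), with black bars for medians. The lowest row gives all 11231 genes as a median, a thick line for the quartiles (-0.23 and 0.27) and a thin line from the 5th to the 95th percentile (-0.65 and 0.80). The medians of OST at -0.47, TRAP at -0.35 and TRAM at -0.49 lie below its lower quartile. Those of the dolichol (-0.30), glycan trimming (-0.28), GPI transamidase (-0.55) and ER chaperone (-0.37) lists do too, while that of the SRP proteins lies near 0.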

How the data were processed

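RNA of 1 KPR- and 1 KPRrestored library was poly(A)-selected, made into directional libraries and sequenced as paired-end 100-base reads. The authors trimmed reads with FASTX_Trimmer and BBMap, mapped them with TopHat (mm10, per the submitters' processing notes) and deposited FPKM values estimated with Cufflinks. The paper also names a geometric normalization of the read counts with EdgeR. The versions of these tools and the annotation are not given in the sources used here.

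The 34 genes, the lists and the tests were chosen with earlier results of these data known. Named genes were the 34, *Runx3*, *Hspa5*, *Hsp90b1*, *Calr*, *Xbp1* and *Dnajb9*, and in each neighbouring list the 2 highest and the 2 lowest differences of log2(FPKM + 1). Marker genes, *Agbl5*, *Nudt5*, *Gm20425*, *Tmem258*, *Srp54a* and *Srp54b* lie outside this rule and were named after their values were seen. 0 members were removed by the minimum mean FPKM of 1.

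Transcript lengths came from GENCODE M21 (GRCm38, the build mm10), as the longest transcript with a RefSeq counterpart. 22148 symbols matched directly and 656 through a synonym. Depth was fitted on protein-coding genes of 1 transcript length of at least 500 bases. Among 452 and 451 low values, 79.0% and 78.7% lay within 0.1 of a whole fragment at a mean fragment length of 216 bases, where 20% would by chance. Fragments per gene were computed with the shortest such transcript and rounded. Their exact Clopper-Pearson intervals, and the normal intervals for pairs of genes, cover counting error only. Near-identical copies were searched with BLAST 2.17.0 (95% identity over 50% of the coding length) and found for 7 of the 34 genes, and exons of 13 overlap a gene on the opposite strand. Depth, differences and intervals were tested on simulated data. Alternatives were other pseudocounts, filters, thresholds and scalings and removal of the length trend. The work used scipy 1.17.1, pandas 2.3.3, numpy 2.4.6 and matplotlib 3.10.9 under Python 3.11.15.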

Additional observations from a re-analysis of the deposited data

How the results depend on the processing

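The limits are those of 1 library per group, of gene models that may differ from the authors' and of fragments that were estimated from FPKM. Pseudocounts of 0.1 and 1, no filter or a filter at a mean of 5 or 20 FPKM (20 was chosen after seeing the data), 3 scalings (the same total, the same upper quartile, a centred median gene) and removal of the length trend were tried. With the length trend removed, the median of signal peptidase was -0.11 instead of -0.028, that of Sec61 -0.14 instead of -0.073, that of the SRP receptor -0.096 instead of -0.056 and that of *Sec62* and *Sec63* -0.0053 instead of -0.055. The SRP protein median, 0.016, was -0.0044 with the same upper quartile. Of the single genes, 6 moved by more than the distance from the middle to the end of their counting intervals, all with the length trend removed: *Sec63* to -0.01, *Sec11a* to -0.11, *Ssr1* to -0.36, *Ssr3* to -0.40, *Stt3a* to -0.26 and *Rpn2* to -0.52. The count of 7 genes lower by 0.5 or more was 5 with a pseudocount of 1, 8 with the length trend removed and 7 under the other pseudocount, filters and scalings. The median gene shifted by at most 0.02 (log2) under these scalings. The count of genes above 0, 8 as reported, was 4 after scaling to the upper quartile and 5 after removal of the length trend, as several of the 8 values lie within 0.02 of 0. With a threshold of 1, 0 of the 34 genes were lower, and with a threshold of 0.25, 16 were, beside 23.7% of the 11231 genes. The glycan trimming list had a median of -0.16 without a filter on FPKM and of -0.16 with the length trend removed, and the ER chaperone list had -0.46 among genes averaging 20 FPKM or more. No paired analysis was possible because each group has 1 library, and for the same reason no library could be left out.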
